A study of Mus musculus with 12 samples.

Results

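Proteasome genes were followed across the stromal vascular fraction (SVF) of inguinal fat in Pdgfrβ-KO mice of 12 months, controls of 12 months and controls of 2 months. The members were the genes whose symbol starts with Psma, Psmb, Psmc, Psmd, Psme, Psmf or Psmg. Of 54 such names among 55536 genes, 4 were pseudogene names ending in -ps and 1, Psmb11, averaged only 0.67 normalized counts, so 49 remained with a mean of at least 10 over the 12 libraries. Just inside that limit lay Psme2b with a mean of 13.1 and Psma8 with a mean of 14.9. The 5 immune members Psmb8, Psmb9, Psmb10, Psme1 and Psme2 were set against the 44 others. One of these others, Psmc3ip, matched by its name only, since its product takes part in meiotic recombination and is no proteasome protein.

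The 12 libraries came from males of mixed C57BL6/J-129SV background kept at room temperature, 4 libraries in each group and titled as biological replicates, and polyadenylated RNA was sequenced. In the Pdgfrβ-KO mice, floxed Pdgfrb alleles (Pdgfrβ fl/fl) were removed after tamoxifen by Sma-CreERT2, whose promoter is active in all vascular smooth muscle as well as in the beige progenitors that the study follows. GEO's labels call the controls wild type, whereas the study's methods describe controls that carry Sma-CreERT2 with a reporter and receive tamoxifen, so whether the Cre driver and tamoxifen were common to all groups is not settled here. The study asked how ageing and Pdgfrβ bear on the formation of beige fat, and compared the SVF transcripts of both ages and of both genotypes.

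The proteasome is the cell's main machine for degrading ubiquitin-tagged proteins. Its barrel-shaped 20S core has outer rings of α subunits and inner rings of β subunits, of which Psmb5, Psmb6 and Psmb7 cut peptide bonds. The 19S cap recognises tagged proteins through its non-ATPase subunits and unfolds them with a ring of ATPases. Interferon-γ induces Psmb8, Psmb9 and Psmb10, which replace Psmb5, Psmb6 and Psmb7 in newly built cores, and it induces Psme1 and Psme2, which form the PA28 activator. The resulting immunoproteasome cuts proteins into peptides for display on MHC class I, and immune cells carry its subunits without induction.

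Deposited totals ran from 19600000 to 21900000 normalized counts per library. The counts behind them, estimated from the gaps that size-factor division leaves in low values, were about 13800000 to 16900000 in 3 Pdgfrβ-KO libraries (not determined in the 4th), 21000000 to 29000000 in 12-month controls and 21400000 to 24800000 in 2-month controls. Pdgfrb, the targeted gene, had 1882, 2145, 1707 and 1749 normalized counts in Pdgfrβ-KO libraries 1 to 4, against 3000, 4380, 3258 and 2399 in 12-month controls and 2536, 2367, 2349 and 2407 in 2-month controls. All 4 Pdgfrβ-KO values lay below every control value, and the log2 fold change from 12-month controls was -0.77 ± 0.17 (SE, adjusted p = 0.016). Markers of fibroblastic progenitors summed to 314232 to 796354 normalized counts per library and those of mature adipocytes to 1458 to 5261, and all 12 macrophage markers were present. Pdgfrβ-KO libraries 1 and 2 stood apart from the other 2: both exceeded Pdgfrβ-KO libraries 3 and 4 in 35 of the 49 members (71.4%), against 4937 of all 16265 genes with a mean of at least 10 (30.4%). The smallest of the 11 size factors estimated were those of Pdgfrβ-KO libraries 1 and 2, 0.63 and 0.716, against 0.825 in library 3. These 2 libraries thus had the fewest counts of those estimated, with library 4 not determined. Whether the split between the Pdgfrβ-KO libraries followed depth was not tested.

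The members together took 0.39% to 0.47% of all normalized counts in Pdgfrβ-KO libraries, 0.37% to 0.39% in 12-month controls and 0.32% to 0.36% in 2-month controls. Their sum was 97405, 101699, 80861 and 78282 normalized counts in Pdgfrβ-KO libraries 1 to 4, against 77656, 79579, 73518 and 80566 in 12-month controls and 72545, 65970, 66240 and 69124 in 2-month controls. Pdgfrβ-KO libraries 1 and 2 were the highest, Pdgfrβ-KO libraries 3 and 4 lay near the 12-month controls, and every 12-month sum exceeded every 2-month sum. Since these are bulk samples, more cells of a type and more RNA per cell cannot be told apart.

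Levels were compared between genes per kilobase of exon. Psme1 ranked 1 and Psme2 ranked 2 of the 49 members, with 5257 and 4189 normalized counts per kilobase in Pdgfrβ-KO libraries, 4099 and 3460 in 12-month controls and 3418 and 3201 in 2-month controls. Psmb8 ranked 4, with 3543 in Pdgfrβ-KO libraries, 2634 in 12-month controls and 2119 in 2-month controls. Its constitutive counterpart Psmb5 ranked 32, with 862 in Pdgfrβ-KO libraries, 580 in 12-month controls and 420 in 2-month controls. Psmb10 and Psmb9 ranked 7 and 21. Their counterparts Psmb7 and Psmb6 ranked 10 and 6. On this scale the SVF thus held more transcript of Psmb8 than of Psmb5, and less of Psmb9 than of Psmb6. At the low end stood Psma8, a testis form of an α subunit, with 15.7 per kilobase in Pdgfrβ-KO libraries, 8.72 in 12-month controls and 2.07 in 2-month controls, and Psme2b, a single-exon relative of Psme2, with 4.18 in Pdgfrβ-KO libraries, 14.6 in 12-month controls and 28.1 in 2-month controls. Values per kilobase use the union of annotated exons, which includes exons that SVF cells may not use.

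The 3 inducible β subunits showed the same order of group means. Psmb8 had 6413, 6986, 4864 and 4812 normalized counts in Pdgfrβ-KO libraries 1 to 4, against 4571, 3845, 4032 and 4707 in 12-month controls and 4444, 3088, 3039 and 3225 in 2-month controls. All Pdgfrβ-KO values lay above all control values of either age, the nearest being 4812 and 4707, and the 2-month library 1 lay among the 12-month controls. Psmb10 had 3190, 3732, 2349 and 2234 in Pdgfrβ-KO libraries, against 2229, 2040, 1990 and 2146 in 12-month controls and 1904, 1483, 1419 and 1718 in 2-month controls. The 3 groups did not overlap, although the lowest Pdgfrβ-KO value was 2234 and the highest 12-month control 2229. Psmb9 had 1961, 2099, 1566 and 1593 in Pdgfrβ-KO libraries, against 1593, 1287, 1458 and 1632 in 12-month controls and 1515, 1178, 1029 and 1106 in 2-month controls. Pdgfrβ-KO libraries 3 and 4 lay within the 12-month controls, and all 4 Pdgfrβ-KO libraries exceeded the 2-month controls.

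The PA28 subunits followed the same libraries. Psme1 had 6781, 6804, 5314 and 4483 normalized counts in Pdgfrβ-KO libraries, against 4812, 4264, 4039 and 5119 in 12-month controls and 4323, 3463, 3472 and 3947 in 2-month controls. Psme2 had 4707, 4645, 3670 and 3332 in Pdgfrβ-KO libraries, against 3379, 3104, 3266 and 3758 in 12-month controls and 3465, 3020, 2933 and 3077 in 2-month controls. Both genes were high in Pdgfrβ-KO libraries 1 and 2, and for both the Pdgfrβ-KO and 12-month control values overlapped. In all 5 immune members the 2-month library 1 was the highest of the 4 young libraries, as it was in 28 of the 49 members (57.1%). The share of all genes highest in that library is not given here.

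Among the constitutive catalytic subunits, Psmb5, which carries the chymotrypsin-like activity, had 887, 1075, 605 and 532 normalized counts in Pdgfrβ-KO libraries, against 481, 607, 430 and 566 in 12-month controls and 448, 301, 361 and 401 in 2-month controls. Psmb6 had 2117, 2177, 1524 and 1449 in Pdgfrβ-KO libraries, against 1404, 1687, 1307 and 1629 in 12-month controls and 1411, 1274, 1193 and 1336 in 2-month controls. Psmb7 had 2365, 2230, 1765 and 1606 in Pdgfrβ-KO libraries, against 1512, 1769, 1460 and 1610 in 12-month controls and 1526, 1362, 1321 and 1412 in 2-month controls. As with the immune members, Pdgfrβ-KO libraries 1 and 2 were the highest of all 12 libraries in each of the 3 genes, and Pdgfrβ-KO libraries 3 and 4 mixed with the 12-month controls or lay close to them.

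**Figure D1:**
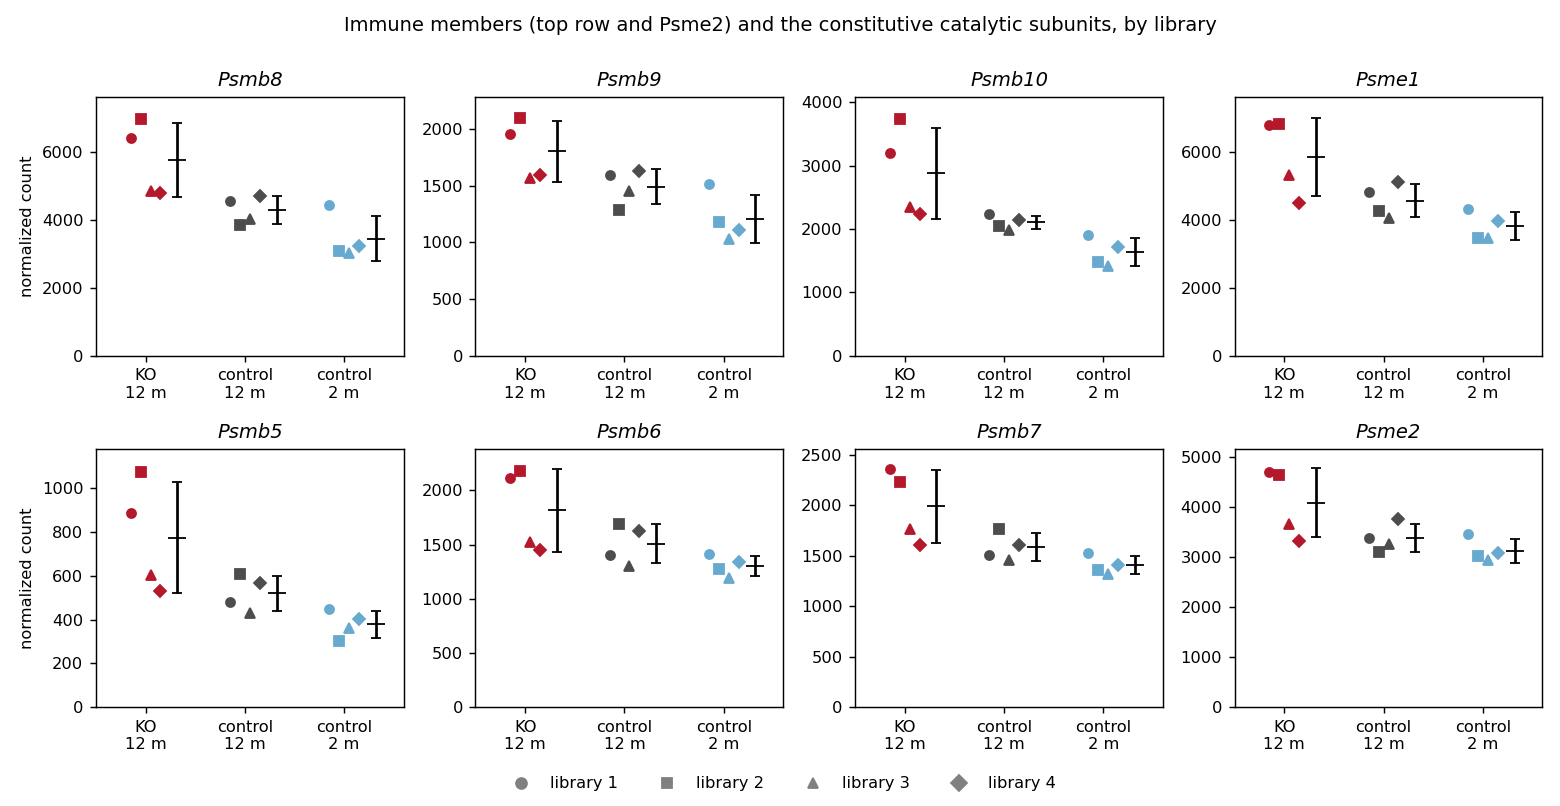
Normalized counts of the 5 immune members and of Psmb5, Psmb6 and Psmb7 in each library, with Pdgfrβ-KO at 12 months on the left, controls at 12 months in the middle and controls at 2 months on the right. Marker shapes give the library number, and black bars are the mean ± SD of 4 libraries. Psmb8 reached 6413 and 6986 in Pdgfrβ-KO libraries 1 and 2, and the same 2 libraries were the highest in all 8 genes.

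Promoter sequences were read from RefSeq (GRCm38.p6) as the 250 bases before and the 30 bases from the annotated start on, which gave 44 windows for 41 of the 49 members. Both strands were searched for an antioxidant response element (TGANNNNGC), a gamma-activated site (TTCNNNGAA), the core of an interferon-stimulated response element (GAAA and a further GAAA with 2 bases of any kind between them) and a CCAAT box (CCAAT), and overlapping matches were allowed. Shown are the windows of 4 immune members, among them Psmb10, the only one past the threshold with age, and of Psmb5 and Psmd13, whose fold changes with age were the largest of the called members of the core and the cap. Matches are in capitals.
Psmb8: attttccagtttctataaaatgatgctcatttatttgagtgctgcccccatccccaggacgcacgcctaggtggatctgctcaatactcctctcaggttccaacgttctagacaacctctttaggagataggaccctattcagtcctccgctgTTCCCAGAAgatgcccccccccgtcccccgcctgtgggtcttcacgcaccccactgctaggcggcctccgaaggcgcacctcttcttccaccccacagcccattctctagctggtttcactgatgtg
Psmb9: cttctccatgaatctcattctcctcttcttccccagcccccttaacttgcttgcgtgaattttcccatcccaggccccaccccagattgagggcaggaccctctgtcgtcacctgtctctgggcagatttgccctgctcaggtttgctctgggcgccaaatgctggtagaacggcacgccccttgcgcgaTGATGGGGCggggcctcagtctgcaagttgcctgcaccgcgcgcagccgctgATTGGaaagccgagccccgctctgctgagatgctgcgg
Psmb10: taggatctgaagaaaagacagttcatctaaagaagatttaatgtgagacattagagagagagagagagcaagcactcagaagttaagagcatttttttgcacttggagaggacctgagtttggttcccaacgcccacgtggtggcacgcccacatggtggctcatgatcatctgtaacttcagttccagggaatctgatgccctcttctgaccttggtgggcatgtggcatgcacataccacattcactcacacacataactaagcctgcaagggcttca
Psme1: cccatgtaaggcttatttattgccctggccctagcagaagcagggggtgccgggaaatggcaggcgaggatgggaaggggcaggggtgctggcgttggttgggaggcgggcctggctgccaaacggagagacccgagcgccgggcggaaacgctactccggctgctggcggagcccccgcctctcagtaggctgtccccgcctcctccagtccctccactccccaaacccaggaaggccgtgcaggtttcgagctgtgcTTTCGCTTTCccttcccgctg
Psmb5: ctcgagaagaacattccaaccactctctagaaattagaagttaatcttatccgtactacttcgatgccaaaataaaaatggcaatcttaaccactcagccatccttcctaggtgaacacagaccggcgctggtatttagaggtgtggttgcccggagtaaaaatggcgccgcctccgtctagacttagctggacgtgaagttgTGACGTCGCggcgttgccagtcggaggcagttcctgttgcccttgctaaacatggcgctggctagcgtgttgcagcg
Psmd13: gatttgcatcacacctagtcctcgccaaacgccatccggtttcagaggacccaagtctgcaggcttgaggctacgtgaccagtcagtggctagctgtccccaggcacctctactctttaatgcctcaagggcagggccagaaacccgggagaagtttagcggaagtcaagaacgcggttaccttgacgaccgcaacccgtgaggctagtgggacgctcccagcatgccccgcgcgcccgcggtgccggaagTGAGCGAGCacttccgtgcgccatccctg
The windows lie at chr17:34197945-34198224 (Psmb8, plus strand), chr17:34187301-34187580 (Psmb9, minus), chr8:105938363-105938642 (Psmb10, minus), chr14:55578244-55578523 (Psme1, plus), chr14:54617966-54618245 (Psmb5, minus) and chr7:140882144-140882423 (Psmd13, plus). Counted from 1 at the annotated start, the capitals mark a gamma-activated site at -97 in Psmb8, antioxidant response elements at -60 in Psmb9, -47 in Psmb5 and 2 in Psmd13, a CCAAT box at -8 in Psmb9 and the interferon-stimulated core at 10 in Psme1. The CCAAT box and the interferon-stimulated core lie on the opposite strand and so appear as their reverse complements. The Psmb10 window held 0 matches. The RefSeq start lay 474 bases from the GENCODE start in Psmb8, 434 in Psmb9, 371 in Psme1 and 426 in Psmd13. The windows of these genes therefore lie inside the genes as GENCODE annotates them. In Psmb10 and Psmb5 the starts were 52 and 27 bases apart. Which start SVF cells use was not tested.

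Over all members with a window, the antioxidant response element stood in 20 of 41 (48.8%), against 39.1% of all 32851 RefSeq windows of this length. The gamma-activated site stood in 3 members, Psmb8, Psmd2 and Psmg1 (7.32%, against 7.83%), and the interferon-stimulated core in 5, Psmb3, Psmd4, Psmd9, Psme1 and Psmg4 (12.2%, against 3.28%). The CCAAT box stood in 14 members (34.1%, against 36.1%). A match is a run of letters, not a bound site. For Psmd9 and Psmd5 the RefSeq start lay 58777 and 4006 bases from the GENCODE start. Psmb8 (chr17:34197721-34201454) and Psmb9 (chr17:34181987-34187764) are neighbours in the MHC, and Psme1 (chr14:55578123-55581529) and Psme2 (chr14:55587441-55591113) lie side by side (GENCODE vM21, GRCm38). An exon of Psmb9 overlaps one of Tap1 on the opposite strand, and such an overlap with a gene averaging at least 100 normalized counts was found for 6 members. How the counting treated strand is not given in the sources used here, so a part of these reads may belong to the partner gene, and reads of Psme2 and Psme2b may likewise be shared.

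Immune members were compared with the others within each library, as the mean log2(normalized count + 1) of the 5 immune members minus that of the 44 others. The difference was 2.03, 1.99, 1.84 and 1.74 in Pdgfrβ-KO libraries, 1.76, 1.52, 1.65 and 1.79 in 12-month controls and 1.84, 1.57, 1.44 and 1.59 in 2-month controls. Its mean was 1.90 ± 0.14 in Pdgfrβ-KO libraries, 1.68 ± 0.12 in 12-month controls and 1.61 ± 0.17 in 2-month controls (SD, n = 4 each), and the 3 ranges overlapped. Set against the constitutive 20S core members with a mean of at least 100 alone, a choice made after seeing the data, the difference averaged 1.01 ± 0.05 in Pdgfrβ-KO libraries, 0.90 ± 0.16 in 12-month controls and 0.90 ± 0.11 in 2-month controls. Against the core, the gap between groups was thus smaller than the spread among the 12-month controls.

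Exchange partners were compared as the log2 ratio of their normalized counts, not per length. The Psmb8 to Psmb5 ratio spanned 2.7 to 3.18 in Pdgfrβ-KO libraries, 2.66 to 3.25 in 12-month controls and 3.01 to 3.36 in 2-month controls. For Psmb9 over Psmb6 the span was -0.11 to 0.14 in Pdgfrβ-KO libraries, -0.39 to 0.18 in 12-month controls and -0.27 to 0.10 in 2-month controls. Neither ratio separated the groups. The Psmb10 to Psmb7 ratio was 0.41 to 0.74 in Pdgfrβ-KO libraries, 0.21 to 0.56 in 12-month controls and 0.10 to 0.32 in 2-month controls, so that only in this pair did the Pdgfrβ-KO and 2-month values not overlap. No test was run on these measures, since the members had been chosen with results known.

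With age, 7 of 14 constitutive core subunits and 5 other members were higher in control SVF. Of 48 members tested, 12 were higher at 12 months than at 2 months and 0 were lower at an adjusted p under 0.05 (limma; 22 higher and 0 lower at an unadjusted p under 0.05). Among all 16399 genes tested, 11.3% were called higher and 11.4% lower, and 18.3% were higher and 18.8% lower at an unadjusted p under 0.05. The median log2 fold change was 0.18 over the members and -0.01 over all genes, and 40 of the 48 members had a positive one, against 49.1% of all genes. The groups did not overlap in 14 members, all of them higher at 12 months, against 12.3% of all genes.

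The constitutive 20S core held most of the calls. Of its 14 tested members, 7 were higher: Psma1, Psma2, Psma4 and Psma6 of the α ring, and Psmb1, Psmb3 and Psmb5 of the β ring. Psma2 had 1822, 1890, 1811 and 2052 normalized counts in 12-month controls, against 1522, 1331, 1404 and 1351 in 2-month controls, a log2 fold change of 0.43 ± 0.08 (SE, adjusted p = 0.00321). Psmb1 had 2209, 2517, 2157 and 2647 in 12-month controls, against 1893, 1762, 1660 and 1808 in 2-month controls (0.42 ± 0.09, adjusted p = 0.0072). The ages did not overlap in either gene. Psma6 had 1538, 1678, 1611 and 1644 in 12-month controls, against 1368, 1264, 1249 and 1386 in 2-month controls (0.30, adjusted p = 0.0171). Psma4 had 1274, 1526, 1232 and 1446 in 12-month controls, against 1181, 1035, 1030 and 1073 in 2-month controls (0.34, adjusted p = 0.0218). Psmb3 had 1155, 1428, 1096 and 1307 in 12-month controls, against 1050, 964, 922 and 967 in 2-month controls (0.35, adjusted p = 0.0239). These 3 were again without overlap. Psmb5 had the largest log2 fold change of the core, 0.46 ± 0.14 (adjusted p = 0.0354), but its lowest 12-month value of 430 fell below the highest 2-month value of 448. The 7 core members that did not pass had log2 fold changes between 0.16 and 0.25.

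In the 19S cap 2 of 17 members tested were higher (11.8%), near the 11.3% of all genes. None of the 6 ATPase genes Psmc1 to Psmc6 passed (limma; 1 of 6, Psmc6, at an unadjusted p under 0.05), and their log2 fold changes ran from -0.03 to 0.17 with a lowest adjusted p of 0.119. Among 11 non-ATPase subunits, Psmd13 and Psmd8, both of the lid, were higher. Psmd13 had 1873, 2182, 1581 and 1935 normalized counts in 12-month controls, against 1413, 1282, 1275 and 1363 in 2-month controls, without overlap, and its log2 fold change of 0.50 ± 0.10 (adjusted p = 0.00474) was the largest among the called members. Psmd8 had 1771, 2113, 1731 and 1917 in 12-month controls, against 1635, 1582, 1415 and 1605 in 2-month controls (log2 fold change 0.27, adjusted p = 0.0482). Psmd12 and Psmd14, the deubiquitinase of the lid, had the largest values on either side among those that did not pass, -0.09 (adjusted p = 0.503) and 0.20 (adjusted p = 0.125). Whether the core differed from the cap was not tested.

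Of 7 assembly chaperones, Psmd9 and Psmd5, which guide the ATPase ring together, were higher. Psmd9 had 609, 746, 598 and 585 normalized counts in 12-month controls, against 477, 399, 440 and 492 in 2-month controls, a log2 fold change of 0.49 ± 0.11 (adjusted p = 0.00798). Psmd5 had 753, 731, 676 and 684 in 12-month controls, against 606, 541, 593 and 624 in 2-month controls (0.27 ± 0.09, adjusted p = 0.0424). Neither gene's ages overlapped. Of the remaining regulators, the inhibitor Psmf1 had a log2 fold change of 0.22 (adjusted p = 0.0947) and Psme2b one of -0.83 (adjusted p = 0.168) at 8 to 20 normalized counts in 12-month controls and 9 to 33 in 2-month controls.

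Of the 5 immune members, Psmb10 alone passed with age, with a log2 fold change of 0.37 ± 0.10 (adjusted p = 0.0208). Psmb8 reached 0.33 (adjusted p = 0.081), Psmb9 0.32 (adjusted p = 0.0833), Psme1 0.26 (adjusted p = 0.0945) and Psme2 0.11 (adjusted p = 0.393). Without the 2-month library 1, the highest young library for all 5, Psmb8 and Psmb9 passed as well, with log2 fold changes of 0.46 and 0.43 (adjusted p = 0.0111 and 0.0174). The count of 12 depended on single libraries. It was 4 without the 2-month library 2 or the 2-month library 3, and 6 without the 2-month library 4 or the 12-month control library 4, whereas Psma2, Psmb1, Psmd13 and Psmd9 passed in all 18 alternatives. The shares of all genes called in these fits are not given here.

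Loss of Pdgfrb at 12 months moved no member past the threshold. Of 48 members tested, 0 were higher and 0 lower at an adjusted p under 0.05 (limma), against 4.96% of all 16344 genes called higher, 4.46% lower and 9.42% either way. At an unadjusted p under 0.05, 9 members were higher and 0 lower, against 13.6% and 13.1% of all genes. The median log2 fold change was 0.18 over the members and -0.01 over all genes, with 39 of 48 above 0. In 4 members the Pdgfrβ-KO values lay above all 12-month control values, against 9.05% of all genes, and in 1 member, Psmg4, below them, against 8.06%.

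The 4 members without overlap were Psmb8, Psmb10, Psma5 and Psmd14. Psmd14 had 1830, 1684, 1488 and 1389 normalized counts in Pdgfrβ-KO libraries, against 1294, 1100, 1206 and 1302 in 12-month controls, a log2 fold change of 0.38 ± 0.11 (adjusted p = 0.063). Psma5, an α-ring subunit, had 2393, 2570, 1993 and 1738 in Pdgfrβ-KO libraries, against 1587, 1693, 1616 and 1592 in 12-month controls (0.41 ± 0.13, adjusted p = 0.071). In both genes the lowest Pdgfrβ-KO library was number 4 and lay close to the highest control. Psmb8 had a log2 fold change of 0.41 ± 0.14 (adjusted p = 0.0968) and Psmb10 one of 0.42 ± 0.16 (adjusted p = 0.119). Psme1, Psmb9 and Psme2 had log2 fold changes of 0.34, 0.27 and 0.26, with adjusted p of 0.175, 0.208 and 0.234.

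Among the constitutive members, Psmb5 had a log2 fold change of 0.53 with a wide interval, 0.06 to 0.99 (adjusted p = 0.141). The 6 ATPases of the cap had log2 fold changes of 0.02 to 0.20, none past the threshold (limma; 0 of 6 at an unadjusted p under 0.05). Psmg4, an assembly chaperone, had 110 to 130 normalized counts in Pdgfrβ-KO libraries, against 135 to 147 in 12-month controls (log2 fold change -0.26, adjusted p = 0.259). The Pdgfrβ-KO libraries disagreed among themselves. Libraries 1 and 2 exceeded every 12-month control in 32 and 36 of 49 members, and libraries 3 and 4 in 14 and 9. The same counts over all genes are not given here, so these do not set the members apart from other genes. Without library 4, 6 members were higher (Psma3, Psma5, Psmb5, Psmb10, Psmd14 and Psmd6), and without libraries 1 and 2 together, a choice made after seeing the data, 0 were. For both fits the share of all genes called is not given here.

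Against 2-month controls, the Pdgfrβ-KO SVF of 12 months differed most, and this comparison joins the age and the genotype, which cannot be told apart in it. One of the 48 members tested, Psma8, passed the filter on low values only through its Pdgfrβ-KO libraries and is left out of the counts here. Of the other 47, 26 were higher and 1 lower, against 22.4% and 22.7% of all 16370 genes. All 5 immune members, 7 of 7 α-ring genes and 6 of 7 constitutive β-ring genes were among the 26, whereas 0 of 6 ATPases of the cap passed (limma; 0 of 6 at an unadjusted p under 0.05, against 26.1% of all genes higher at that level). The median log2 fold change was 0.38 over the 47 members and -0.02 over all genes. In 24 of them the Pdgfrβ-KO values lay above all 2-month control values, against 20.4% of all genes, and in 1, Psmd11, below them, against 20.4%.

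The immune members had log2 fold changes of 0.80 ± 0.17 for Psmb10 (adjusted p = 0.0033), 0.74 ± 0.16 for Psmb8 (adjusted p = 0.00375), 0.61 ± 0.15 for Psme1 (adjusted p = 0.00654), 0.58 ± 0.14 for Psmb9 (adjusted p = 0.00672) and 0.38 ± 0.13 for Psme2 (adjusted p = 0.032). Their median was 0.61, beside 0.53 over the 14 genes of the constitutive core without Psma8. Psmb5 had 775 ± 252 normalized counts in Pdgfrβ-KO libraries and 378 ± 62 in 2-month controls (SD, n = 4 each; log2 fold change 0.99 ± 0.21, adjusted p = 0.00357). Psmb1 averaged 2730.0 ± 418 in Pdgfrβ-KO libraries and 1781 ± 97 in 2-month controls (0.60, adjusted p = 0.00224), and Psma4 1665 ± 271 in Pdgfrβ-KO libraries and 1079.8 ± 70 in 2-month controls (0.61, adjusted p = 0.00265). Psmb6 and Psmb7 reached 0.46 (adjusted p = 0.0223) and 0.49 (adjusted p = 0.0107). Psmb2 was the exception in the core, with 723 ± 56 in Pdgfrβ-KO libraries and 703 ± 30 in 2-month controls (0.04, 95% interval -0.17 to 0.24).

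Of the cap, Psmd14, Psmd13, Psmd6 and Psmd4 were higher among 11 non-ATPase subunits. Over the 17 cap members tested, ATPases included, the share called higher was 23.5%, near the 22.4% of all genes. Psmd14 averaged 1598 ± 197 normalized counts in Pdgfrβ-KO libraries and 1067 ± 79 in 2-month controls, with the smallest adjusted p of all members tested (log2 fold change 0.58 ± 0.11, adjusted p = 0.00181). Psmd13 reached 0.77 ± 0.15 (adjusted p = 0.00249). Psmd6, a lid subunit, had 1601, 1750, 1470 and 1229 in Pdgfrβ-KO libraries, against 1107, 964, 1026 and 1142 in 2-month controls, without overlap (0.50 ± 0.12, adjusted p = 0.00582). The ubiquitin receptor Psmd4 came to 0.34 (adjusted p = 0.0449), and Psmd12, Psmd1 and Psmd11 had values below 0 that did not pass, -0.14, -0.13 and -0.09. Psmd11, a lid subunit, had 1139, 1191, 1091 and 1176 normalized counts in Pdgfrβ-KO libraries, against 1226, 1249, 1231 and 1201 in 2-month controls (adjusted p = 0.361), without overlap. The ATPases ran from 0.10 (Psmc2, 95% interval -0.09 to 0.28) to 0.23 (Psmc3, -0.02 to 0.47). The chaperones Psmd9, Psmd5 and Psmg3 were higher by log2 fold changes of 0.71, 0.44 and 0.99, the last at 63, 124, 46 and 53 normalized counts in Pdgfrβ-KO libraries, against 47, 23, 27 and 40 in 2-month controls. Psmc3ip, the name match outside the proteasome, had 59, 102, 63 and 102 in Pdgfrβ-KO libraries, against 51, 44, 45 and 53 in 2-month controls (0.70, adjusted p = 0.0294).

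Psme4, which encodes the large activator PA200, was the 1 lower member. It had 1068, 1103, 1481 and 1305 normalized counts in Pdgfrβ-KO libraries, against 1358, 1306, 1440 and 1361 in 12-month controls and 1440, 1628, 1596 and 1451 in 2-month controls. Pdgfrβ-KO libraries 1 and 2 were the lowest of all 12, library 3 lay among the young controls, and the log2 fold change from 2-month controls of -0.31 ± 0.12 (adjusted p = 0.0469) passed in 8 of 19 alternatives. Psma8 had 13, 41, 33 and 19 normalized counts in Pdgfrβ-KO libraries, against 20, 9, 21 and 9 in 12-month controls and 2, 2, 8 and 2 in 2-month controls. The Pdgfrβ-KO and 2-month values did not overlap, but since Psma8 entered the fit through its Pdgfrβ-KO values alone, no test of it is given. Psme2b ran the other way, with 3, 3, 2 and 6 in Pdgfrβ-KO libraries, against 10, 8, 20 and 11 in 12-month controls and 9, 28, 33 and 24 in 2-month controls, and was not tested here. Without Pdgfrβ-KO libraries 1 and 2, 19 members were higher and 0 lower, and the share of all genes called in that fit is not given here.

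**Figure D2:**
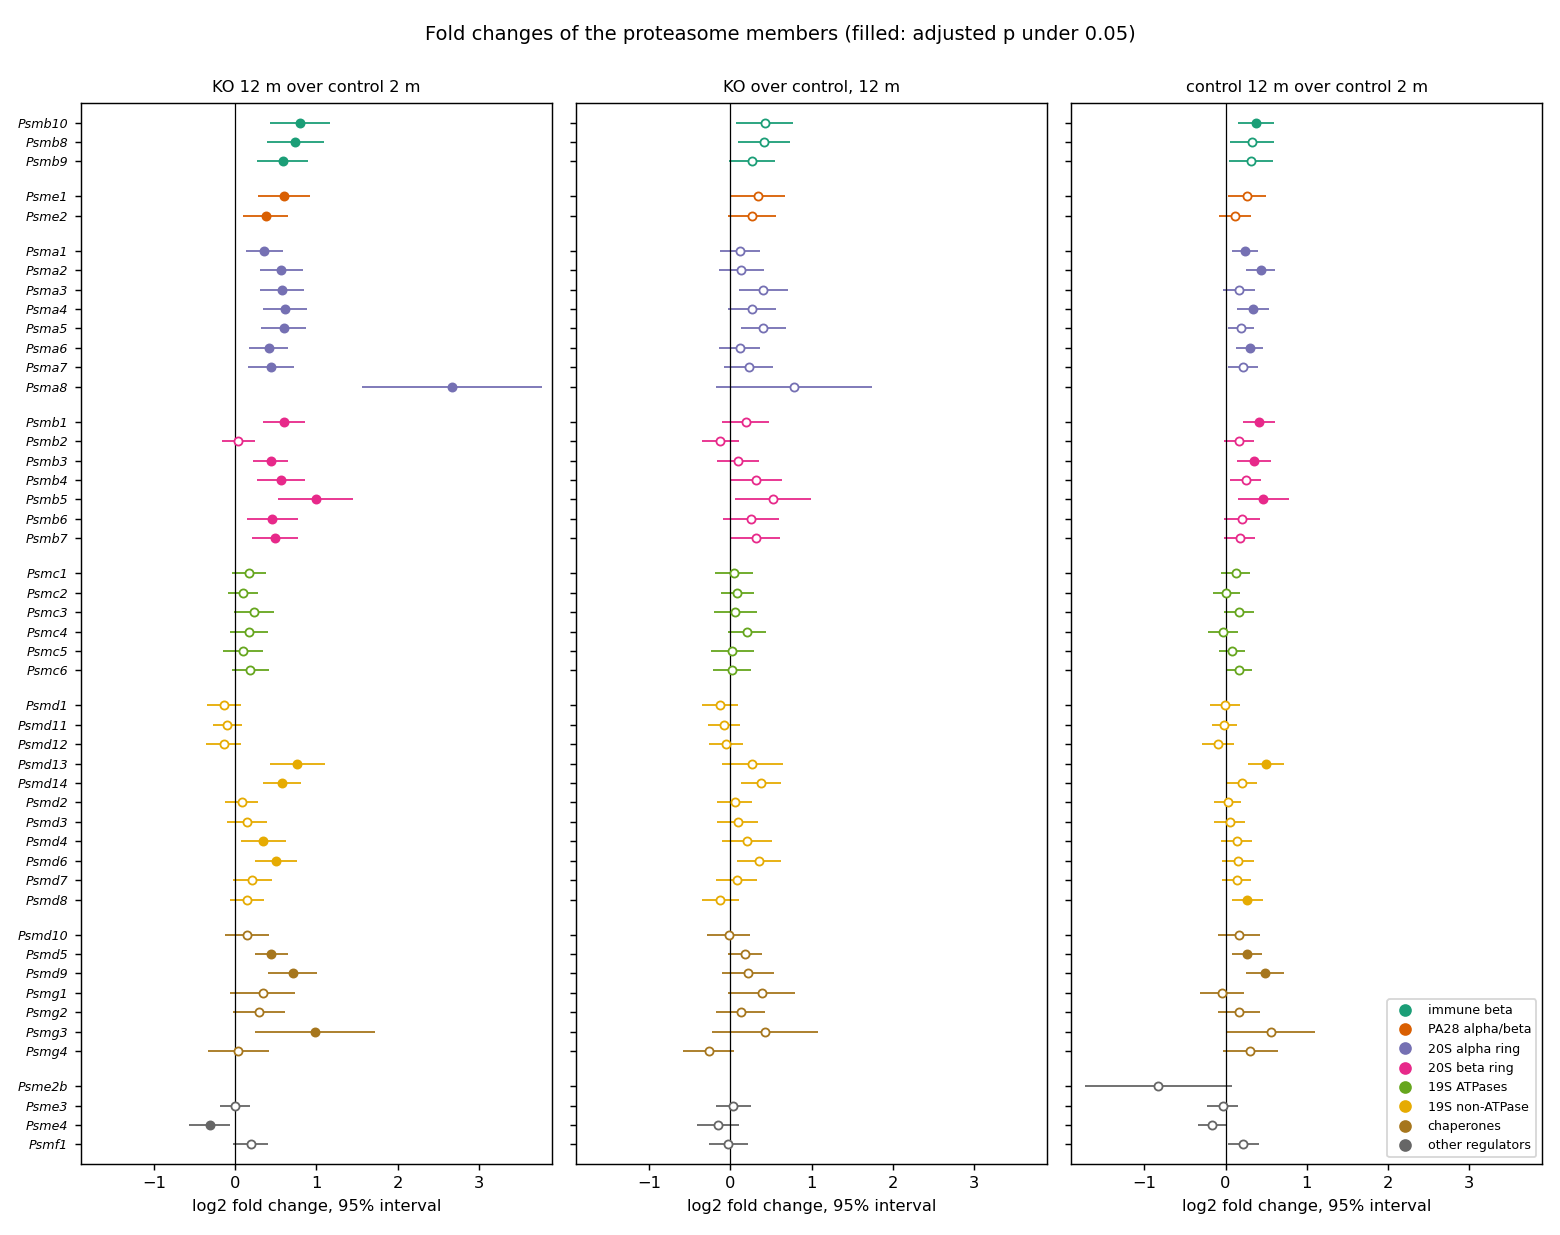
Log2 fold change with its 95% interval (x axis) of each proteasome member (y axis, grouped by role) in the 3 comparisons. Filled points passed an adjusted p under 0.05 in limma with 4 libraries per group. Psmc3ip is not drawn, and the filled Psma8 point belongs to a gene that entered the fit through its Pdgfrβ-KO values alone. The immune genes and the 20S rings lie to the right of 0 in the left panel, the middle panel has 0 filled points, and the 6 ATPases of the cap are unfilled in all 3 panels.

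Averaged within role classes, the same libraries led in most classes. The inducible β subunits averaged 11.58 ± 0.28 on the log2(normalized count + 1) scale in Pdgfrβ-KO libraries, 11.21 ± 0.12 in 12-month controls and 10.87 ± 0.22 in 2-month controls (SD, n = 4 each). The constitutive β ring averaged 10.65 ± 0.25 in Pdgfrβ-KO libraries, 10.42 ± 0.15 in 12-month controls and 10.13 ± 0.08 in 2-month controls. The ATPases averaged 11.00 ± 0.13 in Pdgfrβ-KO libraries, 10.93 ± 0.05 in 12-month controls and 10.84 ± 0.04 in 2-month controls, a narrower span. Psme3, Psme4 and Psmf1 together averaged 9.99 ± 0.12 in Pdgfrβ-KO libraries, 10.03 ± 0.08 in 12-month controls and 10.03 ± 0.04 in 2-month controls, and here Pdgfrβ-KO libraries 1 and 2 were the lowest. Over the 45 members with a mean of at least 100, Spearman's rho between exon length and log2 fold change was -0.23 with age, -0.36 for Pdgfrβ-KO against 12-month controls and -0.28 for Pdgfrβ-KO against 2-month controls, a description over genes that share the same libraries.

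**Figure D3:**
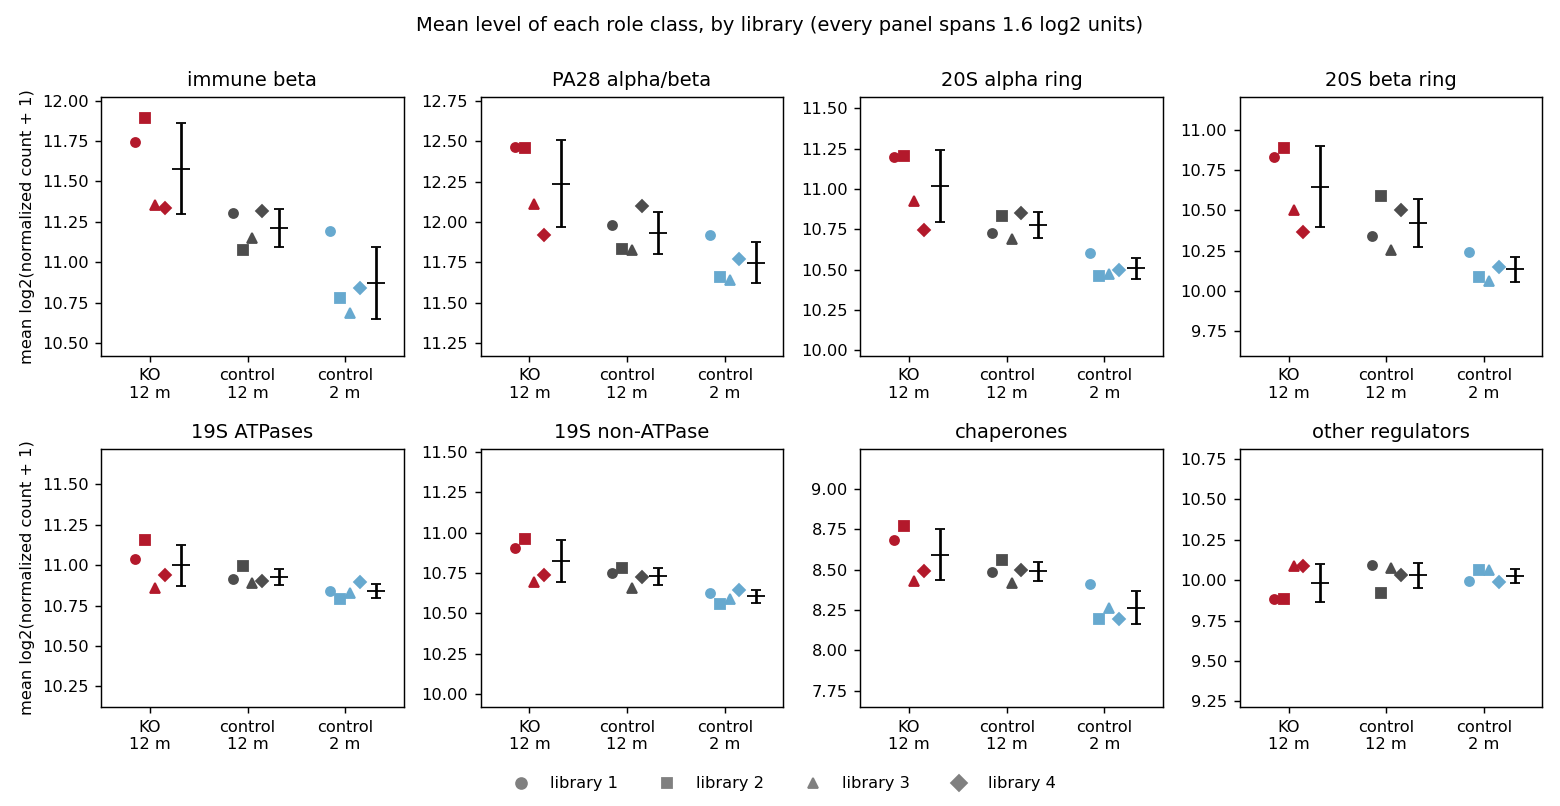
Mean log2(normalized count + 1) of each role class in each library, over members with a mean of at least 100. Groups run Pdgfrβ-KO at 12 months, control at 12 months and control at 2 months from left to right, black bars are the mean ± SD of 4 libraries, and every panel spans the same range. The inducible β subunits average 11.58 in Pdgfrβ-KO libraries, 11.21 in 12-month controls and 10.87 in 2-month controls, whereas the ATPases of the cap average 11.00 in Pdgfrβ-KO libraries, 10.93 in 12-month controls and 10.84 in 2-month controls.

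Of 19 tested partners and regulators of the proteasome, 2 were higher and 0 lower at 12 months than at 2 months in controls, near or below the 11.3% and 11.4% of all genes. They were Sem1, a small subunit of the cap (log2 fold change 0.75, adjusted p = 0.0123), and Pomp, the maturation factor of the core (0.34, adjusted p = 0.0239). In Pdgfrβ-KO against 12-month controls 0 were higher and 1 lower (4.96% and 4.46% of all genes), the ubiquitin shuttle Ubqln2 (-0.44, adjusted p = 0.0172). In Pdgfrβ-KO against 2-month controls 3 were higher and 4 lower (22.4% and 22.7% of all genes), with Sem1 at 1.53 (adjusted p = 0.00213), Pomp at 0.53 (adjusted p = 0.00879), the unfoldase Vcp at 0.34 (adjusted p = 0.0203) and Ubqln2 at -0.42 (adjusted p = 0.0036). The other 3 lower genes were Nfe2l1, which encodes a transcription factor of proteasome genes (-0.35), Zfand5 (-0.38) and Ubqln1 (-0.26). The median log2 fold changes of the list were -0.01, -0.02 and -0.09 in the 3 comparisons, beside -0.01, -0.01 and -0.02 for all genes.

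Partners in antigen processing, 11 genes, held 2 higher genes with age, the chaperone Pdia3 (0.34, adjusted p = 0.0172) and Tapbp, the tapasin that loads peptides (0.26, adjusted p = 0.0392). Among all genes 11.3% were called higher. Canx, the lectin chaperone calnexin, was the 1 higher gene in Pdgfrβ-KO against 12-month controls (0.35, adjusted p = 0.045), beside 4.96% of all genes. Against 2-month controls 3 were higher and 1 lower (22.4% and 22.7% of all genes). They were Pdia3 (0.67, adjusted p = 0.000527), Canx (0.56, adjusted p = 0.000656), Tapbp (0.51, adjusted p = 0.00296) and, lower, Nlrc5, an activator of MHC class I genes (-0.59, adjusted p = 0.0356). Among 6 ubiquitin genes and E1 enzymes, Rps27a, a fusion of ubiquitin with a ribosomal protein, was higher with age (0.52, adjusted p = 0.0235) and in Pdgfrβ-KO against 2-month controls (0.87, adjusted p = 0.00392). Of all genes 11.3% and 22.4% were called higher in these comparisons.

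Most of the 22 interferon-induced genes did not pass with age or in Pdgfrβ-KO against 12-month controls. They summed to 30017 to 35316 normalized counts in Pdgfrβ-KO libraries, 36510 to 46707 in 12-month controls and 45053 to 50130 in 2-month controls. With age 0 of 22 were higher and 2 lower, Isg15 (-0.54, adjusted p = 0.00399) and Stat2 (-0.39, adjusted p = 0.0235). Among all genes 11.3% were called higher and 11.4% lower. In Pdgfrβ-KO against 12-month controls 2 were higher and 4 lower (4.96% and 4.46% of all genes), Oas1a and Ifit3 against Cxcl9, Iigp1, Irf1 and Igtp. Values were those of Oas1a (0.93, adjusted p = 0.00185), Cxcl9 (-1.24, adjusted p = 0.00242) and Iigp1 (-1.02, adjusted p = 0.00311). Against 2-month controls 2 were higher and 10 lower (22.4% and 22.7% of all genes). Cxcl9 was at -1.51 (adjusted p = 2.49e-05) and Iigp1 at -1.29 (adjusted p = 0.000114), while Oas1a was higher at 1.16 (adjusted p = 0.000168). Cxcl9 and Iigp1 are classic targets of interferon-γ.

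Markers of macrophages had the same order of group medians as the members, but not the same order of libraries within groups. The 12 markers summed to 112303, 105351, 79700 and 67270 normalized counts in Pdgfrβ-KO libraries, against 32744, 43588, 46242 and 46476 in 12-month controls and 16201, 23478, 23308 and 23527 in 2-month controls. The 3 groups did not overlap, and Pdgfrβ-KO libraries 1 and 2 were again the highest, whereas the 2-month library 1, the highest young library for the immune members, was the lowest. Of the 12, 8 were higher with age, 10 in Pdgfrβ-KO against 12-month controls and 11 against 2-month controls, with 0 lower in each. The shares of all genes called higher were 11.3%, 4.96% and 22.4%. In Pdgfrβ-KO against 12-month controls, 0 of the 48 proteasome members tested were called, although 39 had a log2 fold change above 0. With 4 libraries per group a missing call is no sign of equal levels. Cd163, a scavenger receptor, led the markers in Pdgfrβ-KO against 2-month controls at 3.14 (adjusted p = 2.49e-06). B cell markers summed to 18665 to 33822 in Pdgfrβ-KO libraries, 15462 to 23142 in 12-month controls and 12166 to 21904 in 2-month controls, and T and NK cell markers to 12912 to 17297 in Pdgfrβ-KO libraries, 10970 to 19988 in 12-month controls and 15014 to 19539 in 2-month controls. Ribosomal protein genes summed to 959796 to 1374275 in Pdgfrβ-KO libraries, 900139 to 1315963 in 12-month controls and 838176 to 946105 in 2-month controls. Of 80 ribosomal protein genes, 29 were higher with age (11.3% of all genes). In Pdgfrβ-KO, 0 were higher against 12-month controls (4.96%) and 58 against 2-month controls (22.4%). The lower ones numbered 1, 2 and 5 in the 3 comparisons. Other lists also differed between the groups. Plasma cell markers summed to 24216 to 62258 in Pdgfrβ-KO libraries, 35200 to 51130 in 12-month controls and 10221 to 14449 in 2-month controls. With age, 5 of 6 tested plasma cell and 5 of 6 mature adipocyte markers were higher and 0 lower. Of 8 mural markers, Pdgfrb among them, 6 were lower and 1 higher, and of 7 endothelial markers 2 were lower. Of 10 fibroblastic progenitor markers 5 were higher and 3 lower, and 10 of 10 tested mitochondrial genome genes were lower (11.3% and 11.4% of all genes). In Pdgfrβ-KO against 2-month controls, 5 of 6 B cell markers were higher and 0 lower. There 7 of 8 mural markers, 5 of 7 endothelial markers and 9 of 10 mitochondrial genome genes were lower and 0 higher (22.4% of all genes higher, 22.7% lower). The part of macrophages, of other cell types, of the ribosomal level and of the lower depth of the Pdgfrβ-KO libraries in the members' differences was not tested.

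**Figure D4:**
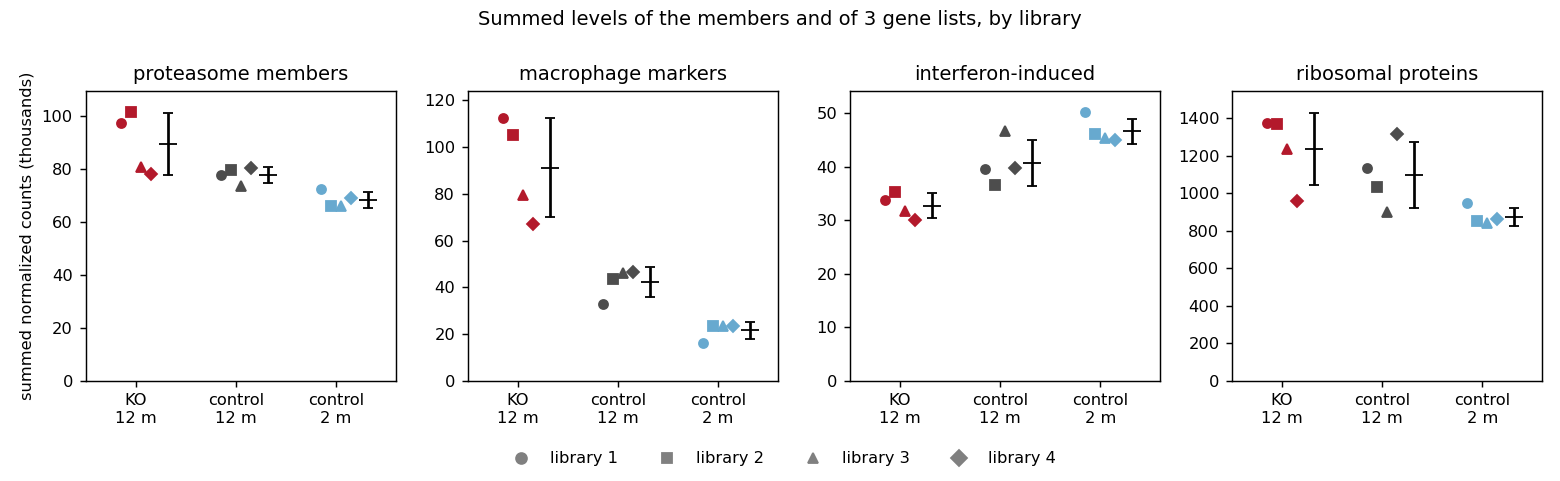
Summed normalized counts divided by 1000 (y axis from 0) of the 49 proteasome members, 12 macrophage markers, 22 interferon-induced genes and 80 ribosomal protein genes in each library. Groups run Pdgfrβ-KO at 12 months, control at 12 months and control at 2 months from left to right, and black bars are the mean ± SD of 4 libraries. Macrophage markers separate the 3 groups, while the interferon-induced sum is highest in 2-month controls.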

How the data were processed

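Polyadenylated RNA of inguinal SVF from 12 male mice was sequenced by the authors with a directional kit. The deposited values are a score: the authors trimmed reads (Trim Galore 0.6.0), mapped them to GRCm38 (STAR 2.7.0e), divided each gene's count by its library's size factor (DESeq2 1.26.0) and rounded the result, called here a normalized count. The annotation release and the counting settings are not given in the sources used here. Of 2 deposited tables, one held both control ages and the other the 12-month animals. Their shared controls were equal in 100% of 55536 genes, so Pdgfrβ-KO was also compared with 2-month controls. Gene names differed between the tables in 27 rows (turned into dates in one) and identifiers in 1, and the intact ones were used. There were 0 other columns of values.

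Values were tested as log2(value + 1) with limma 3.58.1 (R 4.3.3; trend and robust estimation, two-sided, Benjamini-Hochberg adjustment over all genes tested, threshold 0.05), on the 8 libraries of a comparison, for genes with at least 10 in at least 4 libraries. This left out Psma8 with age and Psme2b in both Pdgfrβ-KO comparisons, so 48 members were tested in each. The pseudocount understates changes of low genes. Scripts were tested on simulated data. Python 3.11.15 (matplotlib 3.10.9, pandas 2.3.3, numpy 2.4.6, scipy 1.17.1) made the tables and figures, with coordinates and exon lengths from GENCODE vM21. Sample titles call the libraries biological replicates, which the study's methods define as 1 mouse or culture.

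The members, role classes and lists were chosen with earlier results of these data known. Named with every library were the immune members, Psmb5, Psmb6, Psmb7, Pdgfrb and members past the threshold with the smallest p (up to 3 per role class), and others by value: up to 2 per class that did not pass with the largest absolute change, per list up to 3 that passed and 2 that did not, and whichever genes made up a count of at most 5. Psma8, Psme2b and Psmg4 were also given for their values. Alternatives were pseudocounts of 0.5 and 5, no filter, a mean of at least 50, quantile normalization, median ratio rescaling, no trend or robust estimation, weights per library, a replicate block, each library left out, all 12 libraries in 1 fit and, added after seeing the data, leaving out Pdgfrβ-KO libraries 1 and 2.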

Additional observations from a re-analysis of the deposited data

Results flagged for a closer look

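Of 147 groups of 4 libraries (49 members in 3 groups), 6 held a library whose distance to its nearest neighbour took up more of the group's range than Dixon's critical value for 4 values allows. Chance alone gives about 1 in 20 groups, which would be more than the 6 found. Psmb8 had 4444 normalized counts in the 2-month library 1, with the other young libraries at 3039 to 3225. Psma8 had 8 in the 2-month library 3 and 2 in each other. Psmc6, an ATPase of the cap, had 1351 in Pdgfrβ-KO library 4, with the other 3 at 1687 to 1747, and 1687 in the 12-month control library 2, with the others at 1552 to 1572. In that same 12-month control library Psmd9 had 746, with the others at 585 to 609, and Psme3, the nuclear activator, had 1383, with the others at 1637 to 1652. The cause was not tested.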

How the results depend on the processing

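With 4 animals per group the smallest change called with age was 0.24 on the log2 scale (Psma1), so a missing call is no sign of equal levels. Quantile normalization gave 13 calls with age, of which 11 were among the 12.

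With age, the count of higher members (12) was 6 with all 12 libraries in 1 fit, 5 without trend and robust estimation, 18 with weights per library, and 4 to 13 with single libraries left out, and the count of lower members was 0 to 1, the 1 being Psme2b without the 2-month library 1. For Pdgfrβ-KO against 12-month controls the count of higher members (0) was 4 with all 12 libraries in 1 fit, 1 with weights per library and 0 to 6 with single libraries left out. The count of lower members stayed 0. Against 2-month controls, with Psma8 counted, 21 to 27 members were higher with single libraries left out, beside 27 with all libraries, and the lower count of 1 was 0 with quantile normalization, without trend and robust estimation, without both Pdgfrβ-KO libraries 1 and 2, and 0 to 1 with single libraries left out. In that comparison 18 of 28 calls, Psma8 among them, passed in every alternative that tested them. Since the shares of all genes called in the alternatives are not given here, these counts do not set the members apart from other genes.

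The correlations between same-numbered libraries of their deviations from the group means ran from -0.22 to 0.16 with age, -0.02 to 0.37 for Pdgfrβ-KO against 12-month controls and -0.28 to 0.14 against 2-month controls. In no comparison did all 4 pairs exceed 0.1, although libraries 2 and 3 did for Pdgfrβ-KO against 12-month controls (0.37 and 0.23). The libraries were therefore not treated as paired. A fit with the replicate number as a block gave 8 higher members with age, 2 for Pdgfrβ-KO against 12-month controls (Psma5 and Psmd14), and 25 higher and 0 lower against 2-month controls.

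Over the median instead of the mean of members, the immune members exceeded the others by 1.36 in Pdgfrβ-KO libraries, 1.18 in 12-month controls and 1.21 in 2-month controls. For Pdgfrβ-KO against 12-month controls, leaving out Pdgfrβ-KO libraries 1 and 2 turned 6 uncalled log2 fold changes round, to -0.064 for Psma2, -0.052 for Psma6, -0.013 for Psmb3, -0.012 for Psmb6, -0.035 for Psmd13 and 0.026 for Psme4. The cause was not tested.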
